A study of Homo sapiens with 4 samples.

Results

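The 10 genes described here encode the core machinery that makes microRNAs and carries out silencing with them: *DROSHA*, *DGCR8*, *XPO5*, *DICER1*, *AGO1*, *AGO2*, *AGO3*, *AGO4*, *TNRC6A* and *TNRC6B*. They were chosen by name and no measured value entered the rule, although earlier results of these data were known when it was set. Peaks of PRMT5 RNA immunoprecipitation sequencing (RIP-seq) were attached to them through the gene identifier that each peak carries, named by the symbol the study gave it or, where there was none, by the GRCh38 gene that its peaks touched on the same strand. Of the 10 genes, 3 had a peak, namely *XPO5*, *DICER1* and *TNRC6A*, and each of these had 1. The set therefore held 3 of the 18993 peaks of the list, and 3 of its 8478 gene identifiers.

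Jurkat cells, a human leukemic T cell line, had been stimulated for 48 hours with PHA, a plant lectin that activates T cells, and exposed to UV light, which fixes protein to the RNA it touches. PRMT5, an arginine methyltransferase, was pulled down, with FLAG according to the series design, and the RNA that came with it was sequenced in 2 PRMT5 RIP libraries beside 2 libraries of input RNA. All 4 libraries came from the same line under the same stimulation, so PRMT5 RIP against input was the only comparison, and the labels do not say how a FLAG tag was brought into the cells. For RNA immunoprecipitation the study's methods list an antibody to PRMT5 itself as well as one to FLAG. Whether tagged or untagged PRMT5 was pulled down is therefore not settled. A single peak list was deposited, in which a peak carries 1 RPM (reads scaled to library size) for the RIP and 1 for the input. No column names a single library, so each value was taken as pooled over the 2 libraries of its group. No value below therefore has a replicate spread, and no difference between RIP and input was tested here.

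A microRNA begins as a hairpin in a long nuclear transcript, which the microprocessor of DROSHA and DGCR8 cuts free. XPO5 carries the freed hairpin to the cytoplasm, DICER1 trims it to a short duplex, and an Argonaute protein keeps a single strand of it as a guide. Argonaute then recruits a TNRC6 protein, which calls in the enzymes that shorten the poly(A) tail and remove the cap of the target messenger RNA. In T cells this pathway is known to restrain cytokine production and to shape differentiation.

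The peaks of *XPO5* and *DICER1* lay just downstream of an annotated start, and the sequence around those starts is shown for that reason. Each line runs 5′ to 3′ on the minus strand of GRCh38.p14, as given by RefSeq, with 250 bases before the annotated start in lower case and the first 30 transcribed bases in capitals. The window of *XPO5* is chr6:43576009-43576288 and that of *DICER1* is chr14:95157500-95157779. Both windows lie upstream of the peak of their gene and hold no base of it.
XPO5: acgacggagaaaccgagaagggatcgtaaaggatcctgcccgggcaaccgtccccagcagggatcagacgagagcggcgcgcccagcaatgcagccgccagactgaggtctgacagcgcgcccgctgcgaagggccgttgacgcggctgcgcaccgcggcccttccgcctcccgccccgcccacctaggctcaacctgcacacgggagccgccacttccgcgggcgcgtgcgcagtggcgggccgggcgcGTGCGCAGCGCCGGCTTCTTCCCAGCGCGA
DICER1: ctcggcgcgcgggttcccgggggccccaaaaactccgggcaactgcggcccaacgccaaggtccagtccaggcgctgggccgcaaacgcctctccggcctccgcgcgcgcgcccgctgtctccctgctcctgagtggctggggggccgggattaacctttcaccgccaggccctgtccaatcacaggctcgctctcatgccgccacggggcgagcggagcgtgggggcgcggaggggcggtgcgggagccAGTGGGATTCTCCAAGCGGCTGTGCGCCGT

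No peak was found for the microprocessor. *DROSHA*, the nuclease, spans chr5:31400494-31532093 on the minus strand, and no peak on either strand lay in those 131.6 kb. The nearest peak was 641.724 kb away, beyond a long stretch without peaks. *DGCR8*, its RNA-binding partner, spans chr22:20080241-20111872 on the plus strand, or 31.632 kb, and held no peak either. A minus-strand peak with 5.02 RPM in RIP against 2.69 RPM in input began 1.047 kb past the 3′ limit of *DGCR8* and belonged to another identifier. *DGCR8* also carries the hairpin of MIR3618, which was likewise in no peak.

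*XPO5*, the export receptor for precursor hairpins, had the most abundant of the 3 peaks. The peak, listed under ENSG00000124571.18, covered 2433 nt at chr6:43573558-43575990 on the minus strand. Its pooled level was 4.93 RPM in RIP against 0.98 RPM in input. RIP was thus above input 5.03-fold, and rounding of the RPM values to 0.01 leaves this ratio between 5.0 and 5.06. Taken on the log2 scale with a pseudocount of 0.01, the RPM ratio was 2.32, and the deposited log2 fold change (log2FC) of the authors' peak caller was 3.13, with a deposited FDR of 5.45e-16. Across the 8375 genes with a log2FC, each valued by the median over its peaks, *XPO5* ranked number 870, above 89.6% of them.

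*DICER1*, the nuclease that makes the mature duplex, had a much weaker signal but a similar ratio. Its peak, listed under ENSG00000100697.17, covered 926 nt at chr14:95156385-95157310 on the minus strand. PRMT5 RIP gave 0.69 RPM there and input 0.12 RPM. RIP was above input 5.75-fold, with rounding limits of 5.48 and 6.04, so the limits of *DICER1* and *XPO5* do not overlap, although rounding is only a part of the error. The log2 RPM ratio was 2.43 and the deposited log2FC 3.44, with a deposited FDR of 9.68e-12. *DICER1* ranked number 488 of the 8375 genes, above 94.2% of them. By this measure it was the highest of the 3 members, but with a pseudocount of 0.1 the log2 RPM ratio was 1.84 for *DICER1* and 2.22 for *XPO5*, so the order of these 2 genes turned.

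None of the 4 Argonaute genes, which encode the guide-bound effector proteins, had a peak. *AGO4*, *AGO1* and *AGO3* lie side by side on the plus strand of chromosome 1, with spans of 50.255 kb, 60.772 kb and 141.783 kb. Together they occupy chr1:35807636-36072500, a block of 264.865 kb that held 0 peaks on either strand. The block sat inside a stretch of 447.393 kb between a peak of *PSMB2* on its left and a peak of *ADPRS* on its right, the closer of them 16.417 kb from *AGO3*. *AGO2*, the member that can itself cut its target, spans 122.158 kb at chr8:140520156-140642313 and had no peak on either strand. The nearest peak to *AGO2* was 5.749 kb outside the gene.

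Of the TNRC6 scaffold genes, *TNRC6A* had a peak and *TNRC6B* did not. The *TNRC6A* peak, listed under ENSG00000090905.19, was only 50 nt wide, at chr16:24776979-24777028 on the plus strand. The immunoprecipitate gave 0.43 RPM there and input 0.18 RPM. RIP was above input 2.39-fold, with rounding limits of 2.30 and 2.49. The log2 RPM ratio was 1.21 and the deposited log2FC 2.0, with a deposited FDR of 7.65e-10. *TNRC6A* stood in the middle of the list, number 4428 of 8375 genes and above 47.1% of them. *TNRC6B* spans chr22:40044834-40335808 on the plus strand, and its 290.975 kb, the longest span of the 10 genes, held no peak, while the nearest one outside, 12.838 kb away, had 10.97 RPM in RIP and 12.76 RPM in input.

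**Figure D1:**
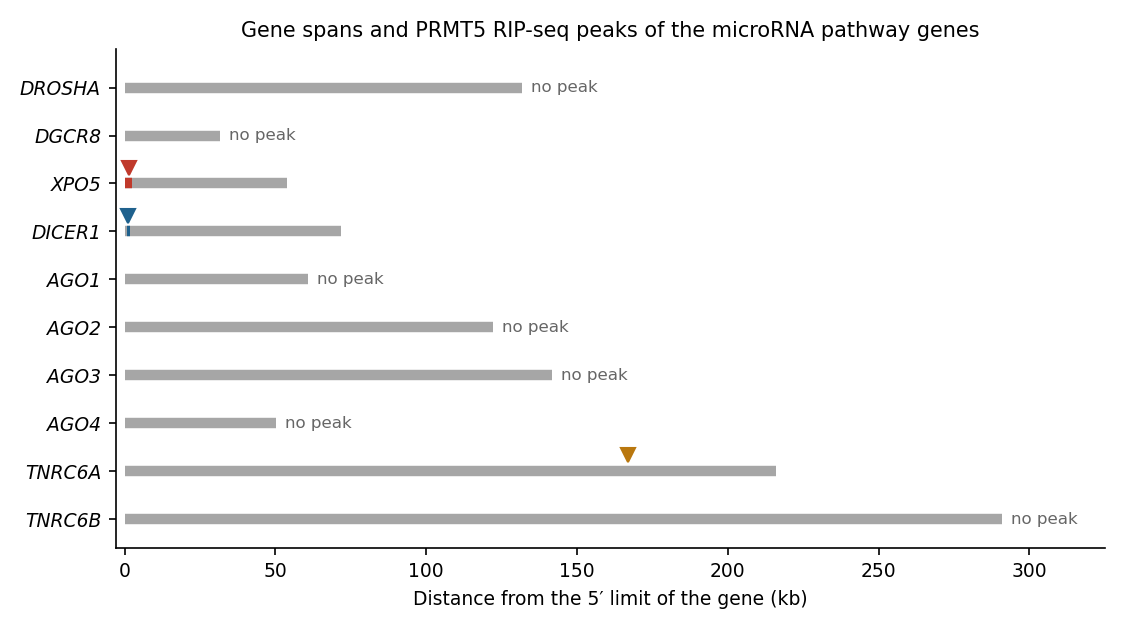
Gene spans of the 10 members (grey bars, in kb from the 5′ limit of the gene, or from the lower coordinate for *AGO2*, whose strand is not in the table used) with their PRMT5 RIP-seq peaks (coloured blocks, with a triangle above each). The peaks of *XPO5* and *DICER1* sit at the very beginning of the gene, that of *TNRC6A* sits 166.774 kb into it, and the other 7 genes have none.

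A share of 3 members in 10 was close to what the annotation as a whole gave. Among 15842 protein-coding genes with a strand in the table used, 5953 or 37.6% were touched by a peak on their own strand, against 3 of the 9 members for which a strand was given. Of genes spanning more than 30 kb and up to 100 kb, 39.4% were touched, and 2 of the 5 members of that size were. Of genes spanning more than 100 kb and up to 300 kb, 30% were touched, and 1 of the 4 members of that size was. The count of members with a peak is therefore no result about this pathway.

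The lack of a peak was not taken here as a measure of the amount of RNA. *CD3E*, *CD3G* and *CD7*, which mark T cells, had no peak under their own name in these T cells either. By name, 5 of 8 T cell markers had one (*CD3D*, *CD247*, *LCK*, *CD2* and *CD28*), against 1 of 4 B cell markers and 1 of 4 myeloid markers. Not every identifier received a name and the spans of the markers were not searched, so a marker without a named peak may still have one. In bulk RNA, fewer cells with a transcript and less of it per cell cannot be told apart, and the level of a gene outside its peaks was not analysed here. For the 7 genes without a peak neither a RIP level nor an input level can be given.

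The 3 peaks differed more in abundance than in ratio. By RPM in PRMT5 RIP, the *XPO5* peak was above 68.6% of all peaks, the *DICER1* peak above 28.9% and the *TNRC6A* peak above 20.0%. By RPM in input the corresponding shares were 52.9%, 14.6% and 20.7%. The order of *DICER1* and *TNRC6A* was thus opposite in the 2 groups, *DICER1* being the lower of them in input and the higher in RIP. Per kb of peak width *TNRC6A*, which had the narrowest of the 3 peaks, was the densest, with 8.6 RPM per kb in RIP and 3.6 in input. *XPO5* had 2.03 and 0.403 RPM per kb, and *DICER1* had 0.745 and 0.130. A wide peak can include introns, which lowers such a density, and exons were not analysed here. How reads at the edges of a narrow peak were counted is not known, so densities at unequal widths may not be comparable.

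All 3 peaks had more than 2 times as much RPM in PRMT5 RIP as in input, as did 55.7% of all peaks. All 3 had a deposited log2FC of at least 1, which 91.2% of the peaks with a value had, and a deposited FDR at or below 0.01, which 99.0% of the peaks with an FDR had. By gene, 61.9% of all identifiers had a median log2 RPM ratio of at least 1. With such backgrounds the 3 calls do not set the members apart, and the place of each within the range of peaks says more. Over all peaks the deposited log2FC had a median of 1.95. The peaks of *DICER1* and *XPO5* were above 93.4% and 88.7% of peaks in log2FC, and that of *TNRC6A* above 52.7%.

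**Figure D2:**
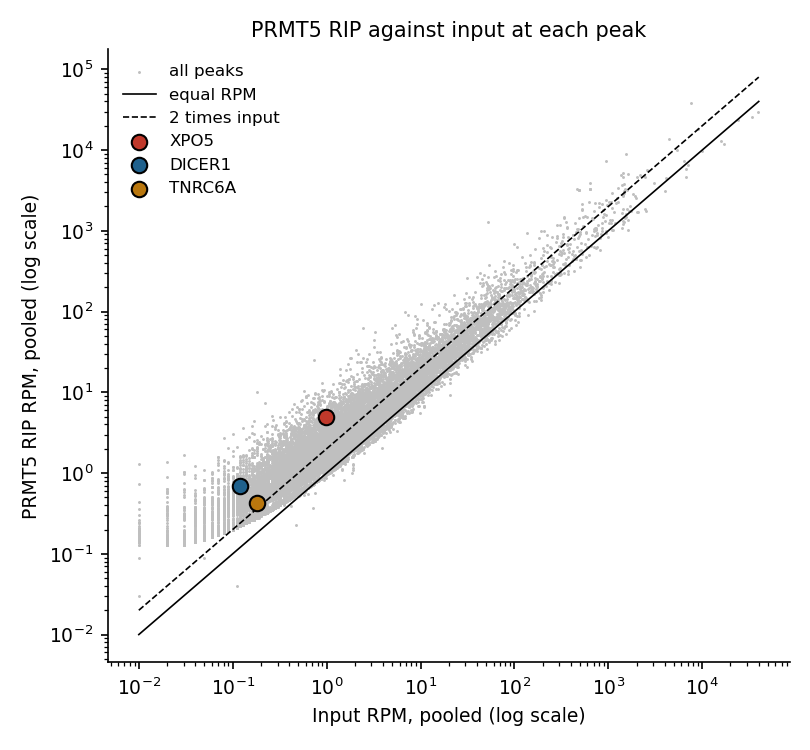
Pooled RPM in PRMT5 RIP against pooled RPM in input at each peak, both on log scales, with lines at equal RPM and at 2 times input. The 13 peaks listed at 0 in either group are left out; *XPO5* and *DICER1* lie well above the dashed line, and *TNRC6A*, at 2.39 times input, lies just above it.

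The log2FC varied with the level of input, so each member was also set beside the peaks whose input RPM was within 2 times its own. For *XPO5* there were 4929 such peaks, with a median log2FC of 1.91 and quartiles of 1.39 and 2.50, and its 3.13 was above 91.0% of them. For *DICER1* there were 3861, with a median of 2.16 and quartiles of 1.77 and 2.77, and its 3.44 was above 90.9%. Among peaks of like input *XPO5* thus stood somewhat higher than in the whole list and *DICER1* somewhat lower, and both stayed above the upper quartile. *TNRC6A*, with 2.0, was above 48.0% of its 4442 peaks of like input, whose median was 2.05.

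Position was not used to choose the genes, and it separated the 3 peaks in the same way as the ratio. *XPO5* has 1 annotated start in the table used, at 43576038, and the 5′ edge of its peak was 48 nt downstream of it. The peak ended 2480 nt from the start, and its centre lay at 2.35% of the length of the gene. *DICER1* has 5 annotated starts, and the peak began 219 nt downstream of the nearest of them, at 95157529, and ended 1144 nt from it. From the 5′ limit of the *DICER1* span, the 5′ edge of the peak was 700 nt away. The centre of the *DICER1* peak lay at 1.62% of the gene. The *TNRC6A* peak was 47.3 kb from the only start that the table used gives for that gene, at 24729651. That start lies inside the gene span, whose 5′ limit was 166.774 kb from the peak. The centre of the *TNRC6A* peak lay at 77.2% of the gene, measured from that limit. Whether any of the 3 peaks falls in an exon, an intron or a UTR was not analysed here.

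Because each member had a single peak, the same distance was measured across genes with 1 peak. The list held 3821 identifiers with 1 peak. Of these, the 2217 with a name, a log2FC and an annotated start at or upstream of the 5′ edge of the peak were used. In 1603 of them, or 72.3%, the peak began at a start or within 500 nt downstream of it, and in the other 614 it began farther away. Genes whose peak began upstream of every annotated start were left out. The window of 500 nt was chosen after these values had been seen. Among these 2217 genes a peak near the start was thus the more frequent arrangement, and *XPO5* and *DICER1* shared it. The other identifiers with 1 peak were not placed, so this share does not describe the whole list. Peaks near a start had a median log2FC of 2.41, with quartiles of 1.93 and 2.93, and a median width of 575 nt. Peaks farther away had a median log2FC of 2.18 and a median width of 225 nt. Within its own class *XPO5* was above 82.2% of genes in log2FC, *DICER1* above 89.3% and *TNRC6A* above 42.0%, so the order of the members was kept.

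**Figure D3:**
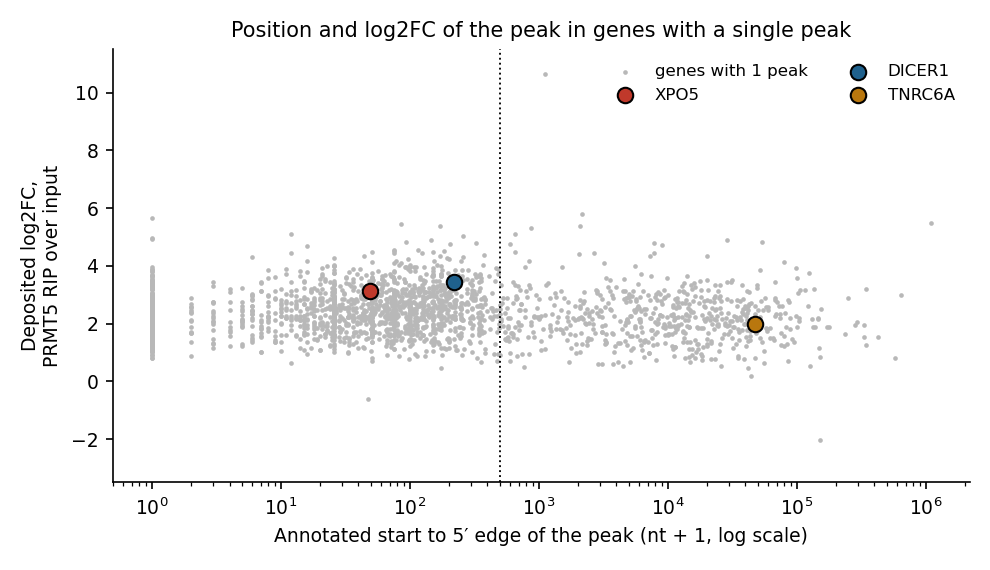
Deposited log2FC of PRMT5 RIP over input against the distance from the annotated start to the 5′ edge of the peak (nt + 1, log scale) in 2217 genes with 1 peak, each a grey point. The dotted line marks 500 nt; *XPO5* at 48 nt and *DICER1* at 219 nt fall to its left in the upper part of the cloud, and *TNRC6A* at 47.3 kb falls to its right, near the middle of the peaks there.

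The starts of the genes with a peak were rich in G and C, as were those of most members without one. In the 300-base window of RefSeq, which runs from 250 bases before a start to 50 bases after it, GC content was 71.7% for *XPO5*, 73.7% for *DICER1* and 73.7% for *TNRC6A*. The windows printed above for *XPO5* and *DICER1* are the first 280 bases of these. For *TNRC6A*, and for *AGO1* below, the window belongs to a start that lies well inside the gene span. The median was 62.7% over protein-coding genes and 65% over the 1603 genes with 1 peak near a start. Among the members without a peak, *DGCR8* and *AGO3* had still more, 80.3% and 80%, *AGO1* had 72.3%, *AGO4* 69% and *DROSHA* 63%, and only *TNRC6B*, with 57.3%, was below the protein-coding median. GC content at the start therefore did not divide the members with a peak from those without one. No window was used for *AGO2*.

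*TNRC6C*, the remaining TNRC6 gene and not a member of the set, had a peak of each arrangement. Its upstream peak, 375 nt at chr17:77958703-77959077 on the plus strand, began at an annotated start, with 5.64 RPM in RIP against 0.47 RPM in input. That is 12-fold, with a deposited log2FC of 4.38. The downstream peak, 250 nt at chr17:78031528-78031777 and 27291 nt from the nearest annotated start upstream of it, had a similar 6.59 RPM in RIP but 4.66 RPM in input, a ratio of 1.41 and a deposited log2FC of 1.22. On the RPM scale the level in RIP was thus alike at the 2 peaks and the level in input was not. *TNRC6A* had a peak of the downstream kind alone.

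Of 66 further protein-coding genes of the pathway, in 3 lists written from general knowledge, 37 or 56.1% had a peak by identifier, beside the 37.6% of protein-coding genes touched by a peak on their strand. Their median gene value was 1.78, against 2.06 over all 8375 genes, whose quartiles were 1.59 and 2.59. The 3 members with a peak had a median of 3.13 and a range of 2.0 to 3.44, but this median is that of *XPO5* alone. The groups were not matched for input, with which the log2FC varied. The member peaks had 0.12 to 0.98 RPM in input. Among the listed genes named below, chosen at a summed input of at least 1 RPM, that sum ran from 1.2 RPM for *FXR1* to 79.83 RPM for *ERH*. Of the 37 genes 9 had a single peak, so most of them carried several peaks of unequal log2FC. Over the whole list 45.1% of identifiers had a single peak, so the 1 peak of each member is no trait of the members.

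Of 23 cofactors of the processing steps, 16 or 69.6% had a peak, with a median of 1.56 and a range of 0.68 to 3.09. Among those with a summed input of at least 1 RPM, *DDX17*, an RNA helicase that works with the microprocessor, had the highest value, 2.16, from 1 peak with 28.09 RPM in RIP against 10.45 RPM in input. *ADAR*, which edits adenosines in double-stranded RNA, followed with 1.86 and *SAFB2*, a chromatin-associated RNA-binding protein, with 1.83. *SAFB2* had 8 peaks whose log2FC ran from 1.66 to 4.08. At the other end were *ERH*, a small dimeric partner of DGCR8, with 0.68, and *ILF2*, the partner of a double-stranded RNA-binding protein, with 0.82. At both *ERH* peaks RIP was below input, at 20.46 against 24.4 RPM and at 53.52 against 55.43 RPM, although the deposited log2FC was above 0 at each, at 0.54 and 0.82.

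Of 17 partners of Argonaute, 11 or 64.7% had a peak, with a median of 1.58 and a range of 0.94 to 3.45. *TNRC6C* led those with a summed input of at least 1 RPM, with 2.80, followed by *FXR1*, an RNA-binding protein of the fragile X family, with 1.89. *HSPA8*, a chaperone that helps to load Argonaute, was next with 1.78, the median of a 100-nt peak with 2.76 and a 752-nt peak with 0.79. *HSP90AA1*, another loading chaperone, was lowest with 0.94, at peaks of 0.78 against 0.67, 0.84 against 0.79 and 32.94 against 24.14 RPM. *PTGES3*, its cochaperone, had 1.08, but the peak that began 3 nt from its start had 19.37 RPM in RIP against 4.25 RPM in input and a log2FC of 2.90. The gene value by the median can thus lie far from the peak with the most signal.

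Of 26 factors that carry out deadenylation, decapping and translational repression, 10 or 38.5% had a peak, a share near that 37.6%, with a median of 2.12 and a range of 0.70 to 4.01. Only 3 of these had a summed input of at least 1 RPM. *CNOT3*, a subunit of the CCR4-NOT deadenylase, had 2.13, and its 3 peaks had a log2FC of 2.64 at 25 nt from a start, 2.13 at 5227 nt and 1.22 at 14544 nt. *EIF4E2*, a cap-binding repressor, had 2.11, the median of a peak with 59.38 against 18.75 RPM and a log2FC of 2.55 and a peak with 8.84 against 4.32 RPM and a log2FC of 1.68. *PABPC1*, the cytoplasmic poly(A)-binding protein, had 0.70, and its most abundant peak had 35.46 RPM in RIP against 25.84 RPM in input. The highest values of this list therefore belonged to genes with less than 1 RPM in input, in the range where all 3 members with a peak also lay.

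**Figure D4:**
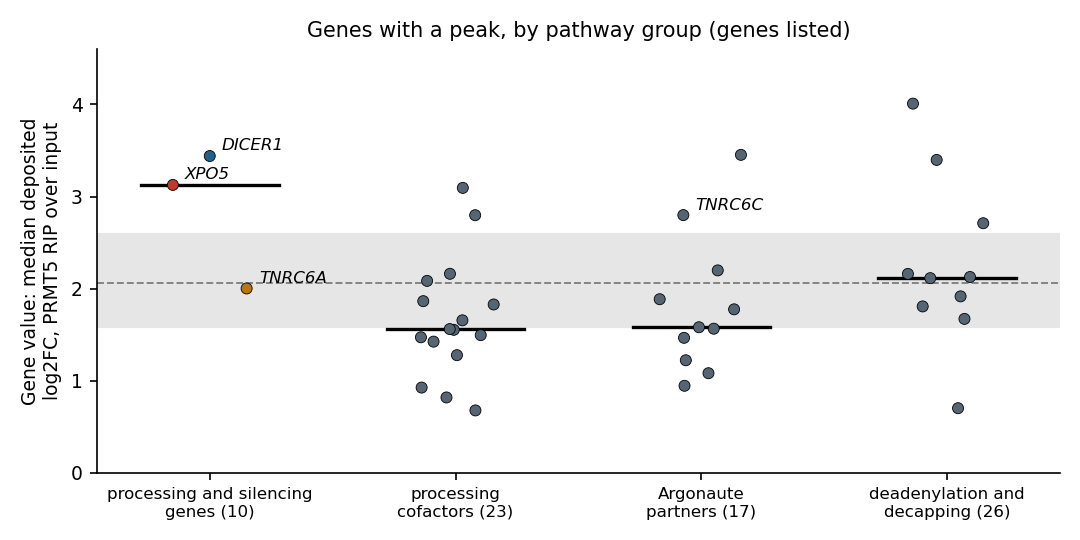
Gene values (median deposited log2FC over the peaks of a gene) for the genes with a peak, by group, with the number of genes listed in parentheses. Short bars are group medians, the dashed line is the median over all genes of the list (2.06) and the grey band its quartiles (1.59 to 2.59); *DICER1* and *XPO5* lie above the band, and the medians of the processing cofactors and Argonaute partners lie at its lower edge.

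For the substrates of the pathway, no share over comparable noncoding genes or intervals was computed, so the counts are given as they stand. Of 87 transcripts named as microRNA hosts, 5 had a peak under their own name, and peaks of identifiers without a name were not counted. Of 1562 annotated microRNA hairpins 115, or 7.36%, lay inside a peak on their strand. *MIR17HG*, the host of a cluster that begins with MIR17 and ends with MIR92A1, had 1 peak of 1308 nt at chr13:91347820-91349127 on the plus strand. Its level was 2.08 RPM in RIP against 0.25 in input, with a deposited log2FC of 3.71, and the peak began 133 nt from the annotated start. The 6 hairpins of the cluster were outside it, the first, MIR17, 1478 nt past its 3′ edge and the last, MIR92A1, 2187 nt past it. In position and log2FC this peak was like those of *XPO5* and *DICER1*.

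The other hosts gave lower values. *MIR181A1HG* had a peak 6 nt from its start with 2.87 RPM in RIP, 1.23 RPM in input and a log2FC of 2.05. *MIR142HG* had 2 peaks, with 2.84 and 0.86, both overlapped by a peak on the opposite strand, so that their strand is uncertain. *MIR9-1HG* had 2 peaks, and the one that held the MIR9-1 hairpin, with 2.81 RPM in RIP and 1.02 RPM in input, listed 2 identifiers and had no log2FC. The name *MIR924HG* rests on position alone, with 2 peaks far from any start and a gene value of 1.64. Within the members, *DICER1* carries the hairpin of MIR3173, which lay 18.399 kb from the *DICER1* peak.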

How the data were processed

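The submitters' processing notes name fastp, HISAT2 and hg38. The peak caller, the annotation and the pooling of replicates are not given in the sources used here. The authors deposited 1 peak list with pooled RPM values, rounded to 0.01, and the peak caller's log2 fold change, p-value and FDR for PRMT5 RIP over input. The scaling behind the log2 fold change is not stated, and it exceeded the log2 RPM ratio by a median of 0.79. Library depth is unknown, so no interval was computed. The kit is strand-specific, but whether counting used strand is not given in the sources used here.

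Each peak was assigned to its first identifier, and starts were raised by 1. Of 8478 identifiers 6051 received a name, 849 from the study's symbols and 5202 by position in GRCh38.p14. Names of genes that overlap, or lie antisense to, another gene are uncertain. A gene was given the median of the deposited log2 fold changes of its peaks, and 350 of the peaks had none. RPM ratios used a pseudocount of 0.01. The members, lists and tests were chosen with earlier results of these data known. Besides the 10 members, the genes named were, from each pathway list, the 3 with the highest and the 2 with the lowest value among those with a summed input RPM of at least 1, and the microRNA hosts with a peak. *CD3E*, *CD3G* and *CD7* were named after the results were seen, and so was the comparison of the *TNRC6C* peaks. No other columns of per-sample values were in the list (0). The functions for same-strand gene overlap, opposite-strand overlap and distance from a start were tested on simulated data. The naming of identifiers and the medians were not. Python 3.11.15, pandas 2.3.3, numpy 2.4.6 and matplotlib 3.10.9 were used. Alternatives covered the measure, pseudocount, filters on RPM, FDR, width and strand, and the assignment of peaks.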

Additional observations from a re-analysis of the deposited data

How the results depend on the processing

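The median of the members' gene values, 3.13, was 2.32 by the log2 RPM ratio with a pseudocount of 0.01 and by the log2 ratio of summed RPM, 1.84 with a pseudocount of 0.1 and 0.59 with a pseudocount of 1. Over all genes the same settings gave 1.20, 1.20, 0.98 and 0.52 in place of 2.06. *DICER1* moved most, from 3.44 to 0.59 with a pseudocount of 1, where *XPO5* kept 1.58 and *TNRC6A* 0.28. With pseudocounts of 0.1 and 1 *XPO5* was therefore above *DICER1*, the opposite of the order by log2FC. The median was 3.13 under the other 5 settings, though with an input of at least 0.5 RPM it rested on *XPO5* alone. Taking the peak with the highest RIP RPM could not change it, since each member had 1 peak. The filters on FDR, width and opposite-strand overlap kept all 3 peaks. These settings therefore say nothing about how stable the median is. Of the 3 member peaks, 1 had at least 0.5 RPM in input and 1 at least 1 RPM in RIP, in both cases that of *XPO5*. With gene spans extended by 5 kb, an alternative chosen after seeing the data, there were 5 peaks, the added ones being 4557 nt from *DGCR8* and 2955 nt from *XPO5* under other identifiers. The count of peaks at 2 times input was 2 with a pseudocount of 0.1, without *TNRC6A*, and 1 with a pseudocount of 1 or an input of at least 0.5 RPM. Windows of 250 and 1000 nt, also chosen after seeing the data, left 2 peaks near a start. The median of the other pathway genes, 1.78, was 0.96 by the log2 RPM ratio and 1.56 with an input of at least 0.5 RPM, both likewise added. No value changed sign, but the order of *XPO5* and *DICER1* changed as stated.

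No paired analysis was possible because each group has 1 pooled value per peak and the columns carry no replicate numbers, and for the same reason none was left out. Ratios at low RPM, as for *DICER1* and *TNRC6A*, rest on few reads, whose number the list does not give.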
